A study of Glycine max with 30 samples.

Results

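The step from the late maturation embryo to the 8-day seedling was followed through trimethylation of histone H3 at lysine 4 (H3K4me3) in soybean, Glycine max cultivar Williams 82. All H3K4me3 peaks of both stages were included: 41536 at late maturation and 52891 in seedlings, together 94427 of the 231124 H3K4me3 peaks in the lists of 5 stages. A late maturation peak was counted as kept when it shared at least 1 bp with a seedling peak and as lost otherwise. A seedling peak with no late maturation peak on any of its bases was counted as gained. Late maturation embryos came from fully yellow seeds of 230 to 500 mg, and seedlings were collected 8 days after sowing. Earlier lists, used to trace the history of a peak, came from cotyledon-stage embryos (seeds of 2.5 to 3.5 mm), early maturation embryos (seeds of 6 to 7 mm) and mid-maturation embryos (seeds of 200 to 250 mg). All plants were of the same cultivar, and the labels name no treatment.

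H3K4me3 is written by Trithorax-type methyltransferases and sits over the start of genes that are transcribed or ready to be transcribed. In plants the domain typically begins at the transcription start and reaches into the gene body. H3K27me3, deposited by Polycomb complexes, covers repressed developmental genes, and seed maturation genes are a well known target of it after germination in Arabidopsis. Late maturation is when the embryo dries and becomes quiescent; the seedling has resumed growth and built green tissue.

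Each list serves both replicates of its group, so there was 1 list per stage. No value below has a replicate error, and no difference between stages could be tested against biological variation. The intervals given are 95% Wilson intervals (for medians, binomial order-statistic intervals). They cover counting error only, and neighbouring peaks are not independent. The depth of the libraries is unknown. The shortest late maturation peak had 197 bp and the shortest seedling peak 124 bp, so each main comparison was also made with peaks of 200 bp or more. For late maturation, frozen powder was crosslinked for 15 minutes on ice, and nuclei were purified on a Percoll/sucrose gradient and frozen. Seedlings and the other embryos were crosslinked for 10 minutes in 1% formaldehyde. Stage and protocol therefore cannot be told apart at late maturation. The name of the late maturation list also carries a caller tag that the seedling and cotyledon-stage names lack. Whether caller settings differed is not known here, so their part in peak number, width and spacing cannot be told apart from stage. Whole embryos and seedlings were used, so a mark in fewer cells and a weaker mark per cell cannot be told apart either. Gene positions of the build of these lists were not used here, so regions are named by position, and the tissue labels were not checked against marker genes.

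Most late maturation peaks were still present in seedlings. Of the 41536, 38001 were kept (91.5%, interval 91.2 to 91.8) and 3535 were lost, 8.51% of the list. Seedlings added many peaks: 14972 of 52891 were gained, 28.3% of the list (27.9 to 28.7). Gained peaks were short, with a median width of 324 bp against 1057 bp for kept seedling peaks. Lost peaks had a median of 374 bp against 872 bp for kept late maturation peaks. Among gained peaks, 4225 (28.2%) were under 200 bp, a size that 146 lost peaks (4.13%) had. With peaks of 200 bp or more in both lists, 3914 of 41174 late maturation peaks were lost (9.51%) and 10899 of 47746 seedling peaks were gained (22.8%). The gain exceeded the loss with and without short peaks. The seedling list was the longer one both times, and unequal length largely fixes which of the counts is larger. The gain was close to the loss when the seedling list was reduced to its 41536 highest scores, with 6198 gained and 5562 lost. A reciprocal overlap of 50% raised the loss to 9952 and the gain to 21307, and within the upper 75% of scores of each list 1902 were lost and 10272 gained.

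The rule itself left few borderline peaks. Just inside it, 106 kept seedling peaks shared at most 50 bp with a late maturation peak, with a median width of 185.5 bp and a median score of 5.42. Just outside, 121 gained peaks lay within 50 bp of a late maturation peak, with a median width of 179 bp and a median score of 5.94.

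More of the new marked bases lay in kept than in gained peaks. The lists shared 32.1 Mb of the 36.2 Mb covered at late maturation and the 49.3 Mb covered in seedlings. Of the 17.25 Mb marked in seedlings alone, 9.70 Mb (56.25%) belonged to kept peaks that reached beyond their late maturation bounds, and 7.55 Mb (43.75%) to gained peaks. In the other direction, 4.135 Mb were marked at late maturation alone, 2.34 Mb of it in kept peaks and 1.79 Mb in lost ones.

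Gained and lost peaks were mostly weak by the score that the authors gave each peak, which was used here only to rank peaks within a list. In the lowest decile of seedling scores 4390 of 5308 peaks were gained (82.7%), and in the highest 7 of 5294 (0.132%). The share fell through every decile between them, passing 19.03% in decile 5. Late maturation peaks went from 1164 of 4145 lost in the lowest decile (28.1%) to 33 of 4154 in the highest (0.794%). That curve flattened: from decile 7 upward it stayed between 0.699% and 0.938%. The median gained peak stood at percentile 17.9 of the seedling scores, and the median lost peak at percentile 15.7 of the late maturation scores.

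**Figure D1:**
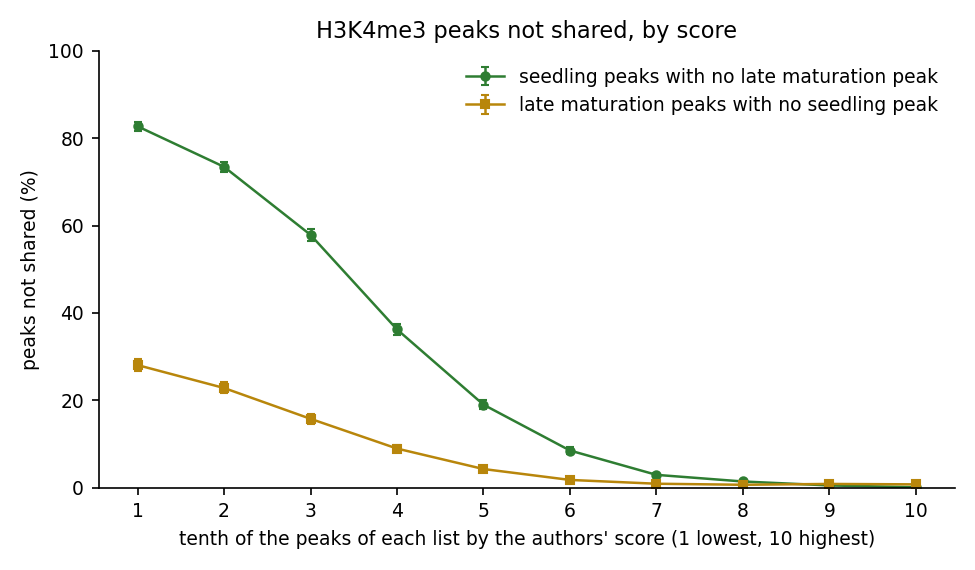
Share of seedling H3K4me3 peaks that were gained (circles) and of late maturation peaks that were lost (squares), in percent, by decile of the authors' score within each list; bars are 95% Wilson intervals. Gains run from 82.7% in the lowest decile to 0.132% in the highest, and losses from 28.1% to 0.794%.

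More than 50% of gained peaks had been marked before late maturation, a smaller share than among kept peaks. Of the 14972, 8953 (59.8%, interval 59.0 to 60.6) overlapped a peak of the cotyledon, early or mid-maturation list, and 6019 (40.2%) had no earlier peak. Among kept seedling peaks 36978 of 37919 had one (97.5%), and in the whole seedling list 86.8%. Mid-maturation, the longest of the 3 earlier lists, contributed most, with 7385 gained peaks (49.3%). Early maturation followed with 6435 (43.0%) and the cotyledon stage with 5523 (36.9%). A peak at all 3 earlier stages preceded 4072 gained peaks (27.2%), and 1820 (12.2%) had been seen at mid-maturation alone. Histories with the cotyledon stage alone (431) or early maturation alone (384) were rare. With peaks of 200 bp or more the share already marked was 63.4% (62.5 to 64.3), and when overlaps had to cover 50% of both peaks it was 44.5%, under the 50% mark. Viewed from mid-maturation, 10643 peaks were missing at late maturation, and 6607 of them (62.1%, 61.1 to 63.0) overlapped a seedling peak. In the whole mid-maturation list the share was higher, since 5086 of 47697 peaks (10.7%) overlapped no seedling peak.

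Gained peaks with a longer history were larger. Those preceded at all 3 earlier stages had a median width of 525.5 bp and a median score percentile of 26.4, those with no earlier peak 254 bp and 14.1. Where a gained peak matched a single mid-maturation peak (6059 pairs), it stood at a median percentile of 23.6 in seedlings and 20.6 at mid-maturation. Its median width was 477 bp in seedlings and 579 bp at mid-maturation, with a median ratio of 0.881 (0.865 to 0.902). The median of these gained peaks was thus in the lower part of the score range at both stages. Loss and return of a peak cannot be told apart here from a weak peak missed at late maturation.

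In the highest 25% of seedling scores, 65 of 68 gained peaks (95.6%, interval 87.8 to 98.5) and 13143 of 13149 kept peaks (99.95%) had an earlier peak. In the upper 50% the shares were 83.8% of 722 gained and 99.8% of 25730 kept peaks. Among gained peaks, the highest seedling score, 160.5, belonged to a peak of 1709 bp on chromosome 16 from 31800584 to 31802292. Its scores at the cotyledon, early and mid-maturation stages were 149.6, 155.5 and 90.7, and the nearest late maturation peak was 5517 bp away. A peak of 2285 bp on chromosome 11 from 10302831 to 10305115 scored 151 in seedlings and 97.3 at mid-maturation. Chromosome 13 held the next pair, from 29155017 to 29155817 (151, against 46.2 at mid-maturation) and from 8328819 to 8329662 (149, against 152). The last of the 5 stood out by size: on chromosome 14 from 805957 to 810017 the seedling peak spanned 4061 bp, where the mid-maturation list had 764 bp and a score of 12.5. All 5 had a peak at each of the 3 earlier stages. Scores are not on a common scale between lists, so these values give presence and rank only.

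Among gained peaks with no earlier peak, the highest score was on chromosome 8 (44127084 to 44129190). The next lay on chromosome 9 (5079944 to 5082062), followed by chromosome 13 (31421611 to 31423487). Their scores were 134, 132 and 122, and their widths 2107, 2119 and 1877 bp. The nearest late maturation peaks were 7918, 31260 and 8762 bp away. None of the 3 overlapped an H3K27me3 island at late maturation or in seedlings. They were not typical of their class, whose median width was 254 bp.

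Most lost peaks had no earlier peak. Of the 3535, 2166 (61.3%, interval 59.7 to 62.9) had no peak at any earlier stage, and 1369 (38.7%, 37.1 to 40.3) had one, against 97.7% of kept late maturation peaks and 92.7% of the whole list. Mid-maturation peaks preceded 1116 of them (31.6%), early maturation peaks 878 (24.8%) and cotyledon-stage peaks 609 (17.2%). The share thus grew towards late maturation. The lists also grew in that order, with 44248 peaks at the cotyledon stage, 44752 at early and 47697 at mid-maturation. The part of list length was not tested. Among lost peaks of the lists limited to 200 bp or more, 42.2% had been marked earlier. Of the kept late maturation peaks in the upper 50% of scores, 99.6% had an earlier peak, and of the lost ones 74.2% (158 of 213).

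**Figure D2:**
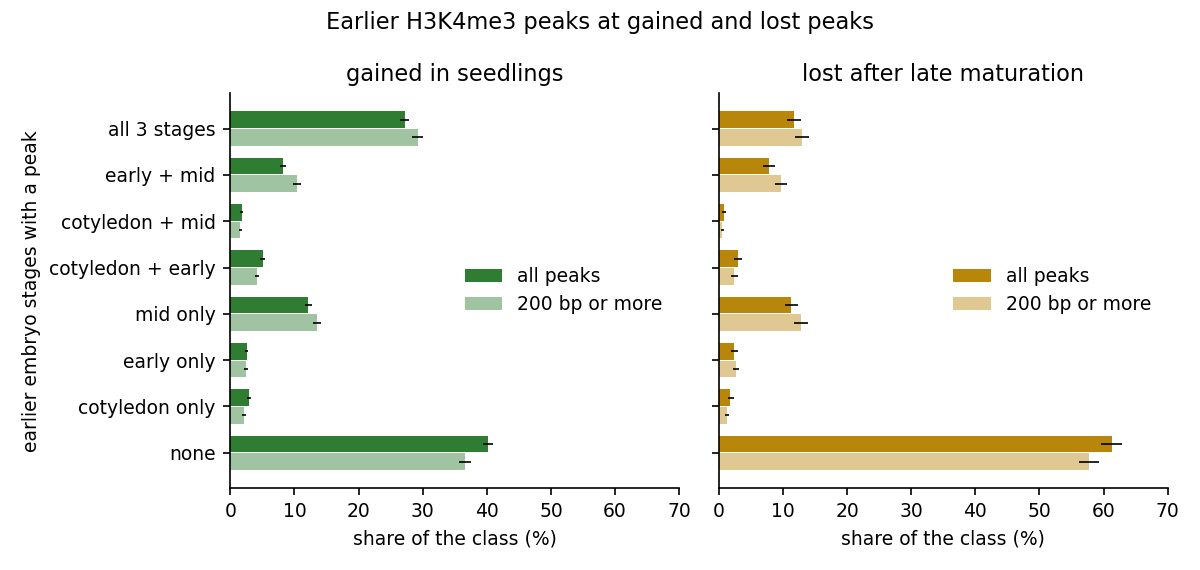
Share of gained seedling peaks (left) and lost late maturation peaks (right), in percent, by the set of earlier embryo stages with an overlapping H3K4me3 peak; dark bars are all peaks, light bars peaks of 200 bp or more, and lines are 95% Wilson intervals. No earlier peak accounts for 40.2% of gained and 61.3% of lost peaks.

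The lost peak with the highest score, 216.5 in the late maturation list, was 1621 bp wide and lay on chromosome 17 from 35229847 to 35231467. It had peaks at the cotyledon, early and mid-maturation stages with scores of 54.4, 142 and 177, and the nearest seedling peak was 15221 bp away. A peak of 2764 bp on chromosome 9 from 35912915 to 35915678 scored 213 and was present from early maturation on. On chromosome 10 from 41734142 to 41735996 the marked width went from 189 bp at the cotyledon stage through 848 and 1661 bp to 1855 bp at late maturation, and islands of H3K27me3 lay there at late maturation (fold of 1.12) and in seedlings (1.79). The last of the 5 were wide and late. One spanned 3699 bp on chromosome 1 (54026781 to 54030479), with no earlier peak and a seedling island of fold 3.29. The other spanned 5541 bp on chromosome 6 (46653514 to 46659054), where the mid-maturation list had 575 bp and seedlings an island of fold 1.45. The remaining 2 of the 3 highest-scoring lost peaks with no earlier peak were on chromosome 8 (6042475 to 6045261, 2787 bp, score 159, seedling island of fold 4.66) and chromosome 12 (38578151 to 38579178, 1028 bp, score 149). The last had a late maturation island of fold 1.28 and none in seedlings. Seedling H3K4me3 peaks lay 460 bp from the lost peak on chromosome 8, 741 bp on chromosome 1 and 6580 bp on chromosome 12. For chromosomes 9, 10 and 6 the distances were 2897, 1865 and 2435 bp. The folds are the authors' enrichment over control.

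Peaks present at both stages were wider in seedlings. In 35169 pairs, neither peak touched a second peak of the other list. Median widths were 882 bp before and 1064 bp after, and the median ratio of seedling to late maturation width was 1.155 (interval 1.151 to 1.158). Seedling peaks were wider in 27150 pairs (77.2%). A ratio of at least 1.5 was reached in 7160 pairs, 20.4% of all pairs, and its inverse in 1497, 4.26%. The median ratio was 1.156 with peaks of 200 bp or more. Peaks split or joined rarely: 883 late maturation peaks lay under 2 or more seedling peaks, and 971 seedling peaks over 2 or more late maturation peaks. Across pairs, scores of the lists had a Spearman correlation of 0.716 and widths of 0.684. These describe pairs that share the genome and the mappability of each place.

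The widening depended on how strong the late maturation peak was. In the lowest 25% of late maturation scores the median ratio was 1.63 (398 bp against 729 bp), and 55.9% of 6408 pairs were at least 1.5 times wider. It was 1.203 and 1.138 in the next groups and 1.07 in the highest 25%, where 5.08% of 9906 pairs passed 1.5. Ranking by seedling scores gave another picture, with a median ratio of 0.804 in the lowest 25% and between 1.16 and 1.19 in the rest. Ranking on either list selects peaks that are small in that list.

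Late maturation was the narrow stage of the 5. At 29404 regions with exactly 1 peak in every list, the late maturation median was 907 bp. Seedlings had 1081 bp. Going back in time, mid-maturation had 1063 bp, early maturation 1115 bp and the cotyledon stage 1066 bp. The late maturation peak was the narrowest of the 5 in 61.1% of regions and the widest in 7.58%, with ties counted at each stage. The median ratio to late maturation was 1.15 in seedlings and also 1.15 at mid-maturation. Seedling widths at shared regions were thus close to those before late maturation; against mid-maturation, over 39104 pairs, the median ratio was 1.005 (1.003 to 1.006).

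**Figure D3:**
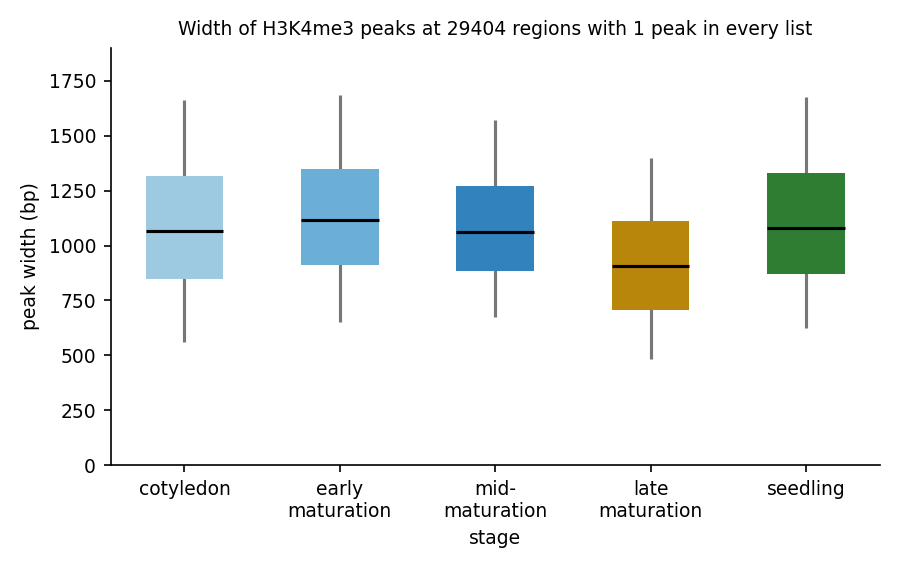
Width in bp of H3K4me3 peaks at 29404 regions with exactly 1 peak in each of the 5 lists, by stage; black lines are medians, boxes span the 25th to the 75th percentile and grey lines the 10th to the 90th, over regions and not over replicates. The median is 907 bp at late maturation and between 1063 and 1115 bp at the other stages.

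Outward movement of 1 edge was more frequent than that of both edges. Edges were called held when they moved by less than 100 bp and moved when they shifted by 200 bp or more. In 9889 of the 35169 pairs (28.1%, interval 27.7 to 28.6) one edge lay further out in seedlings while the opposite edge was held. Both edges lay further out in 904 pairs (2.57%). Both were held in 11904 (33.85%). Inward movement of 1 edge with the other held was found in 1241 pairs (3.53%). Another 10910 pairs (31.0%) fell between these limits, with a median outward shift of 143 bp at the edge that moved further out. In the 1-sided extensions the outward edge had moved by a median of 355 bp and the held edge by a signed median of 14 bp outward, and the peak went from a median of 898 bp to 1302 bp. The moved edge was the one with the lower coordinate in 4953 of the 9889 (50.1%). Of the 7160 pairs at least 1.5 times wider, 59.7% were of this 1-sided kind and 12.2% had both edges out. The lists carry no strand, and the direction of the moved edge relative to a gene was not analysed here.

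**Figure D4:**
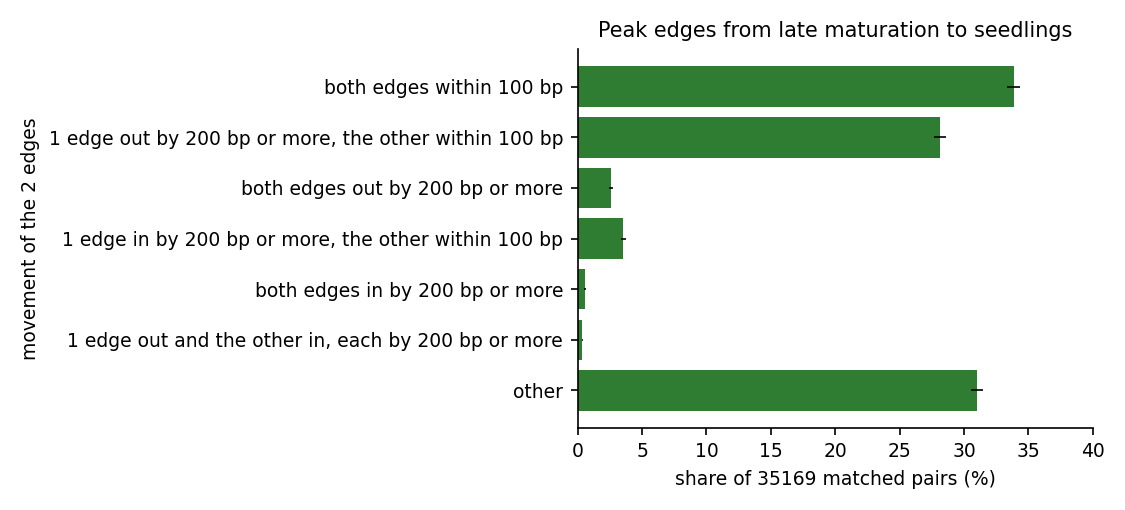
Share in percent of the 35169 matched pairs by what their 2 edges did from late maturation to seedlings, with 95% Wilson intervals. Outward movement of 1 edge with the other held is found in 28.1% of pairs, and outward movement of both in 2.57%.

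The earlier edge lay nearer the seedling edge than the late maturation edge in most 1-sided extensions, with a median short of the seedling edge. For each 1-sided extension matched to a single peak of an earlier list, the earlier edge was placed on the way from the late maturation edge (0%) to the seedling edge (100%). At mid-maturation the median position was 61.5% over 9305 regions, and the edge was nearer the seedling one in 59.0% (58.0 to 60.0). The 75th percentile there was 93.3%, so fewer than 25% of mid-maturation edges reached the seedling edge. At early maturation the median was 79.3% (nearer the seedling edge in 68.9%), and at the cotyledon stage 71.9% (62.6%). The opposite edge had a signed median of 27, 30 and 15 bp outward from late maturation at these stages. The pairs were chosen for a seedling edge beyond the late maturation edge, and this choice partly fixes the direction of these values.

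Of pairs in the upper 75% of scores of both lists, the largest ratio, 6.28, was on chromosome 3, where a late maturation peak of 489 bp (36637411 to 36637899) met a seedling peak of 3073 bp (36634829 to 36637901). The upper edges differed by a few bases, while the seedling peak reached far below the lower edge. Earlier widths there were 1023, 1111 and 866 bp. On chromosome 5 a peak of 528 bp (41366993 to 41367520) became one of 3128 bp (41364444 to 41367571), a ratio of 5.92, again on the lower side; earlier widths were 671, 579 and 640 bp, and an H3K27me3 island lay there at both stages. The last, on chromosome 15 from 47454219 to 47456013, went from 304 bp (47454374 to 47454677) to 1795 bp. Unlike the other widened regions it had been nearly as wide before, with 1557, 1633 and 1299 bp at the cotyledon, early and mid-maturation stages.

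The 3 largest contractions had a ratio of 0.110, 0.111 and 0.116. On chromosome 6 a late maturation peak of 2940 bp (15010529 to 15013468) met a seedling peak of 323 bp. On chromosome 19 a peak of 2250 bp (40616393 to 40618642) met one of 250 bp, and here the marked width had grown from 548 bp at the cotyledon stage through 1135 and 1432 bp. On chromosome 11 a peak of 3288 bp (5169009 to 5172296) met one of 380 bp. All 3 seedling remnants overlapped a seedling H3K27me3 island, with the authors' fold over control at 2.02, 4.33 and 2.94. The islands spanned 1600, 10000 and 8400 bp. At late maturation the first 2 also overlapped an island (folds of 1.92 and 1.28), and the third overlapped none. Among all 35169 pairs, weak peaks included, 1497 were at least 1.5 times narrower in seedlings, and 909 of these had no island at either stage. Such narrowing was found in 3.22% of pairs with no island and 15.4% of those with a seedling island alone. With islands at both stages it was 7.05%, and with a late maturation island alone 6.57%.

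H3K27me3 was the readout independent of the overlap rule. Gained peaks overlapped an H3K27me3 island of late maturation in 5319 of 14972 cases (35.5%, interval 34.8 to 36.3) and one of seedlings in 5198 (34.7%). For kept seedling peaks the shares were 16.8% and 16.8% of 37919. Most of the overlap was at both stages: 4427 gained peaks (29.6%) lay in an island before and after, 892 (5.96%) at late maturation alone and 771 (5.15%) in seedlings alone. Of kept seedling peaks, 13.0% lay in an island at both stages, 3.85% at late maturation alone and 3.77% in seedlings alone. Lost peaks overlapped a late maturation island in 26.2% of cases and a seedling island in 27.04%, against 17.0% and 16.8% for kept late maturation peaks. With peaks of 200 bp or more, gained peaks gave 36.2% and 35.1%, and lost peaks 26.95% and 28.1%.

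Within score groups the contrast was smaller, and for seedling islands it ran the other way among weak peaks. In the lowest 25% of seedling scores, gained peaks overlapped a late maturation island in 37.1% of cases and kept peaks in 34.8%; in the next 25% the shares were 34.5% and 33.2%. For seedling islands the shares were 37.5% of gained and 39.1% of kept peaks in the lowest 25%, and 31.7% (30.3 to 33.1) and 35.7% (34.7 to 36.7) in the next. The classes differed more in the third group, 21.4% of 654 gained against 13.0% of 12581 kept for late maturation islands and 15.1% against 12.7% for seedling islands. Weak lost peaks went the other way: in the lowest 25% of late maturation scores, 26.97% of lost and 37.2% of kept peaks overlapped a late maturation island, and 26.7% and 38.3% a seedling island. Widths differed too: median widths in the third group were 1381 bp for gained and 1082 bp for kept seedling peaks. In the lowest 25% they were 226 and 306 bp, and for lost and kept late maturation peaks 303 and 386 bp. The part of width in these shares was not tested.

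Strong lost peaks gave other values than weak ones. In the upper 50% of late maturation scores, a split made after values were seen, 213 peaks were lost. Of these, 85 (39.9%, interval 33.6 to 46.6) overlapped a seedling island and 54 (25.35%, 19.98 to 31.6) a late maturation island. For the 20549 kept peaks of the same score range the shares were 7.03% and 7.99%. An island in seedlings with none at late maturation was found at 49 of the 213 lost peaks (23.0%, 17.9 to 29.1) and at 570 of the 20549 kept ones (2.77%). In the lower 50% these shares were 6.41% for lost and 4.79% for kept peaks. Strong lost peaks were also wide, with a median of 1408 bp against 1028 bp for kept peaks in that range. A wider peak has more room to meet an island, and the part of width in the difference was not tested.

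**Figure D5:**
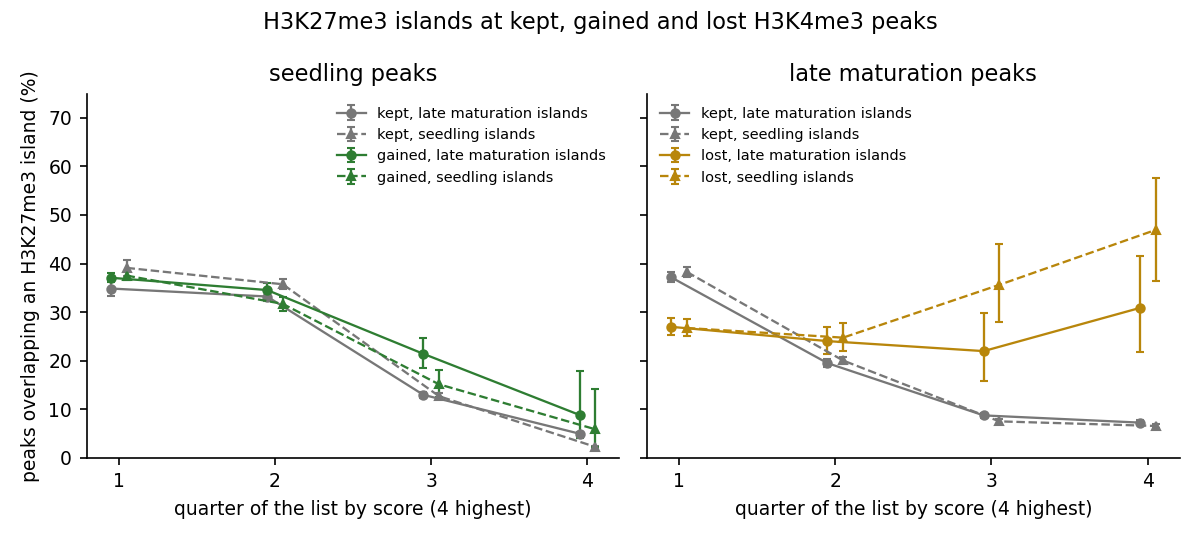
Share in percent of H3K4me3 peaks that overlap an H3K27me3 island of late maturation (circles, solid lines) or of seedlings (triangles, dashed lines), by 25% group of score within the list, for kept (grey) and gained or lost (coloured) peaks; bars are 95% Wilson intervals. Among late maturation peaks with the highest scores, 46.9% of 81 lost and 6.56% of 10302 kept peaks overlap a seedling island.

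By any overlap, 7.41% of lost and 3.70% of kept late maturation peaks met a seedling island alone. Of the 3535 lost peaks, 185 lay wholly inside a seedling island and touched no late maturation island. The highest-scoring one was on chromosome 14 from 7958860 to 7961228, with a late maturation score of 179; its seedling island spanned 4800 bp at a fold of 3.49. The second, on chromosome 13 from 30435548 to 30437659, had a score of 171 and lay in an island of 10000 bp at a fold of 3.10. It had a mid-maturation peak but none before. The third, on chromosome 20 from 44068550 to 44070509, had a score of 162.5 and an island of 22000 bp at a fold of 3.07. Its H3K4me3 was present from early maturation on. The nearest seedling H3K4me3 peaks were 3662 bp away on chromosome 14, 11048 bp on chromosome 13 and 1406 bp on chromosome 20.

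In the reverse direction, 5.96% of gained and 3.85% of kept seedling peaks met a late maturation island alone. Of the 14972 gained peaks, 684 lay wholly inside a late maturation island with no seedling island on them. The highest score, 144, was on chromosome 12 (10400356 to 10402644). A score of 115 followed on chromosome 20 (34616874 to 34618224), and one of 111 on chromosome 18 (60549927 to 60551529). Their late maturation islands had folds of 1.63, 1.88 and 2.005, below the median of 2.38 for that list. The first 2 had H3K4me3 peaks at all 3 earlier stages. The third had only a mid-maturation peak of 373 bp, against 1603 bp in seedlings.

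H3K27me3 overlap varied with the history of a gained peak. Gained peaks seen earlier at mid-maturation alone overlapped a late maturation island in 64.1% of 1820 cases and a seedling island in 63.6%. For those seen at the cotyledon and early maturation stages but not at mid-maturation, the shares were 15.7% and 15.3% of 753. Both groups were weak and short, with median score percentiles of 16.0 and 14.3 and median widths of 317 and 253 bp. Gained peaks with no earlier peak gave 35.8% and 33.0%, and those with a peak at all 3 stages 25.6% and 27.1%. Cotyledon and mid-maturation together gave 61.4% and 59.9% of 267, and early and mid-maturation 40.3% and 40.7% of 1226. The cotyledon stage alone gave 24.8% and 23.9% of 431, and early maturation alone 19.8% and 18.5% of 384. With peaks of 200 bp or more the gained peaks of mid-maturation alone gave 64.1% and 63.6% of 1477. Among all lost peaks, mid-maturation alone gave 35.5% and 37.75% of 400, and early maturation alone 52.9% and 50.6% of 85. The lists of each stage were called separately, and the part of differing caller settings in these shares was not tested.

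Gained peaks lay apart from late maturation peaks more often than beside them. The median distance to the nearest was 4322 bp; 1955 (13.1%) were within 500 bp, 6746 (45.1%) between 2000 and 10000 bp, and 3369 (22.5%) at 10000 bp or more. Of the 1955 close ones, 1855 (94.9%) lay beside a late maturation peak that was itself kept, and their median width was 225 bp. Late maturation peaks themselves had a median gap of 8776 bp, so the distances of gained peaks were not shown to be particular to them. Lost peaks had a median distance of 2780 bp to the nearest seedling peak, in a list with a median gap of 6649 bp. Few lost peaks had a gained peak nearby, with 104 of 3535 (2.94%) within 500 bp of one.

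Along the chromosomes both classes were spread much like the lists themselves. The gained share ran from 25.6% on chromosome 10 to 32.7% on chromosome 18 (874 of 2674, interval 30.9 to 34.5), and the lost share from 7.08% on chromosome 20 to 10.6% on chromosome 12 (184 of 1738, 9.23 to 12.1). In the middle 50% of the chromosome span, which held 21.1% of seedling peaks, 27.1% were gained, and in the outer parts 28.6%. For lost peaks the shares were 9.24% and 8.32%.

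Set beside the other steps that touch these lists, the pattern ran in the opposite direction from mid- to late maturation. There 22.3% of mid-maturation peaks were lost and 8.78% of late maturation peaks gained, the median width ratio was 0.871, and 1 edge moved in with the other held in 21.2% of 35355 pairs. When late maturation was passed over, 10.7% of mid-maturation peaks had no seedling peak and 16.8% of seedling peaks no mid-maturation peak. With peaks of 200 bp or more these last shares were 12.8% and 12.5%, while from late maturation to seedlings they were 9.51% and 22.8%. The comparisons share lists, unequal list lengths enter the balance of gain and loss, and the differences between comparisons were not tested.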

How the data were processed

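Chromatin immunoprecipitation was sequenced for 30 samples in 15 groups; the 4 libraries of the compared groups were made with 1 µg of H3K4me3 antibody, fragments of 100 to 500 bp and 15 PCR cycles, per the labels. The submitters' processing notes name Bowtie 0.12.7, SAMtools 0.1.19, MACS2 and SICER 1.1; the genome build is not given in the sources used here. Lists reach base 62288266 of chromosome 18, beyond the last RefSeq gene of Glycine_max_v4.0 (58285519), so that annotation was not used. H3K4me3 lists hold 1 score per peak, deposited by the authors, whose meaning is not stated; peaks under 200 bp numbered 362 at late maturation and 5145 in seedlings. H3K27me3 islands carry a fold over control and a false discovery rate (a q-value), deposited by the authors; islands above 0.05 were left out (474 and 310). The mid-maturation list was matched by its stage code.

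Overlaps were computed with Python 3.11.15, pandas 2.3.3 and scipy 1.17.1, and checked against planted lists. Percentiles and the 25% and 50% score groups were taken within a list. Positions count from 1. Members, lists and splits were chosen with earlier results of these data known. Named regions followed a fixed rule: the highest scores among gained peaks (5, and 3 each with no and with 3 earlier stages), lost peaks (5, and 3 with no earlier peak), peaks inside an island of the other stage (3 each way), and the 3 most widened and 3 most narrowed pairs. The named pairs came from the upper 75% of scores of both lists. Alternatives were a minimum width, the upper 75% of scores, equal numbers, other overlap rules, no scaffolds and all islands.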

Additional observations from a re-analysis of the deposited data

How the results depend on the processing

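No paired analysis was possible because 1 list stands for both replicates of its group. Leaving out a replicate and a replicate block were not run for the same reason. Of 43 values under alternatives, 24 were labelled as within the range set for them and 19 as moved. The range for counts was wide. Against 14972 gained peaks in the main setting, 21307 with a reciprocal overlap of 50% and 10272 in the upper 75% of scores were labelled as within it. None was labelled as reversed, but a count or a share has no direction to reverse, so only the width ratio could be. The tally therefore does not measure how stable the results were. Gains exceeded losses in the 6 alternatives for peaks. Except with equal numbers, the longer seedling list largely fixed this outcome. Lost peaks numbered 1902 in the upper 75% of scores, 5562 when list lengths were made equal and 9952 with a reciprocal overlap of 50%; gained peaks numbered 6198 with equal numbers, where the lists have the same length by construction. The share of gained peaks already marked was 63.4% with peaks of 200 bp or more, 44.5% with a reciprocal overlap of 50% and 65.5% within 500 bp. The share of lost peaks already marked was 42.2% with peaks of 200 bp or more, 44.7% with equal numbers and 41.2% within 500 bp. The width ratio was 1.133 in the upper 75% of scores, 1.160 with equal numbers, 1.131 with a reciprocal overlap of 50% and 1.160 within 500 bp. The share of gained peaks in late maturation islands was 34.7% in the upper 75% of scores, 33.8% with equal numbers, 32.8% with a reciprocal overlap of 50%, 37.6% within 500 bp and 36.4% with all deposited islands. Removing scaffolds moved none of the 7 results. The cause of these changes was not tested.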

Other observations

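Gained peaks were found in 886 of 957 windows of 1 Mb. In the 500 windows with at least 30 seedling peaks, the median share gained was 28.2%, and the 5th and 95th percentiles were 18.2% and 41.7%. The highest share, 62.9%, was in the window of chromosome 16 from 32000001 to 33000000, with 56 gained peaks among 89 in seedlings and 37 peaks at late maturation. Next came chromosome 18 from 8000001 to 9000000, with 32 of 53, and chromosome 15 from 46000001 to 47000000, with 24 of 41. These windows were picked for their share after values were seen.

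Neighbouring peaks stood closer together in the seedling list. Gaps under 500 bp made up 13.6% of all gaps in seedlings, 6.02% at late maturation, 5.61% at mid-maturation, 6.01% at early maturation and 10.3% at the cotyledon stage. The smallest gap was 52 bp in all 5 lists. The seedling and cotyledon-stage lists also held the most peaks under 200 bp, 5145 and 3309. Early, mid- and late maturation held 895, 377 and 362. The shortest peak had 124 bp in seedlings and 129 bp at the cotyledon stage, against 177 to 197 bp in the other lists. The part of short peaks, of list length and of caller settings in the gaps was not tested.

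Late maturation islands that held a gained H3K4me3 peak numbered 3693, 21.9% of that list. They had a median width of 6800 bp and a median fold over control of 2.66, against 4200 bp and 2.38 for the whole list. Late maturation islands that held a kept seedling peak numbered 5086 and were also wide, with medians of 6000 bp and 2.44. Late maturation islands that held a lost peak numbered 805, with a median fold of 2.23. In the seedling list 843 islands lay over a lost peak, with a median fold of 2.69 against 2.35 for that list. Seedling islands over a kept seedling peak numbered 5378, with a median fold of 2.57.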
